A study of Mus musculus with 9 samples.

Results

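The 2 mutant lines of this series, HD-homo (STHdhQ111/Q111) and HD-het (STHdhQ7/Q111), were compared directly with each other, to find which functions separate them. A row of the count table entered when it held at least 10 counts in at least 3 of the 6 mutant libraries. Of 36410 rows, 12579 met this rule, and 98.9% of them were protein-coding genes. All of them were tested, and none was picked for its value.

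Ribosome profiling (Ribo-seq) sequences the short mRNA pieces, or footprints, protected by a ribosome during nuclease digestion. The footprint count of a gene follows both its mRNA level and the number of ribosomes per mRNA. No mRNA libraries were used here, so these cannot be told apart in any value below. The cells were immortalized striatal cells of C57/BL6 mice that divide in culture. The lines were described as knock-ins of exon 1 at the Huntingtin gene Htt, although the paper derives the control line from wild-type embryos. Per the labels, the control line (STHdhQ7/Q7) held 7 glutamine repeats on both alleles, HD-het held 7 on 1 allele and 111 on the other, and HD-homo held 111 on both, with 3 libraries from separate rounds of culture in each. All cells received cycloheximide, an elongation blocker, for 10 min, and fragments of 26 to 32 nt came from the 80S monosome fraction. Since each genotype was represented by 1 line, allele number and cell line cannot be told apart in any value given here. The p-values below measure the spread between rounds of culture of these lines. The control line serves only as a reference level.

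As background, the striatum is the forebrain region that degenerates in Huntington disease, and its embryonic precursors express neural stem cell genes such as nestin and a set of patterning transcription factors. Immortalized precursors attached to a dish also make matrix, integrins and contractile filaments, features that such cells share with fibroblasts and mural cells. Growing cells devote much of their translation to ribosomal proteins, whereas lysosomes break down what cells take up or recycle.

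Library totals of the 6 mutant libraries ran from 22504543 to 36470422 counts. Abundance is given as CPM, counts scaled to a common library size, after trimmed-mean (TMM) scaling, always as replicates 1, 2 and 3, and levels are compared only within a gene. A fold change is HD-homo over HD-het on the log2 scale with its standard error (SE), and a gene is said to rise or fall when its edgeR adjusted p lay under 0.05. The biological coefficient of variation was 10.5% in HD-het and 15.99% in HD-homo.

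Most tested genes differed between the mutant lines. In HD-homo, 3898 genes rose, 31.0% of those tested, and 4018 fell, 31.9%. These shares are the background against which the counts within gene lists below are to be read. A change of at least 2-fold passed the test for 1323 higher genes, 10.5% of those tested, and for 2079 lower genes, 16.5%. Larger changes also ran more often downward, with 214 genes higher and 351 lower by a log2 value of 4 or more. The CPM of the 2 lines did not overlap for 8703 genes, 69.2% of those tested. At the edge of the call, Fez2 lay just inside with a log2 fold change of -0.27 (adjusted p = 0.04993) and Ddx17 just outside with 0.23 (adjusted p = 0.05003). The minimum of counts was met through HD-homo alone by 288 genes, which stayed under 10 counts in every HD-het library, and through HD-het alone by 404. Such a gene had to differ between the lines.

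**Figure D1:**
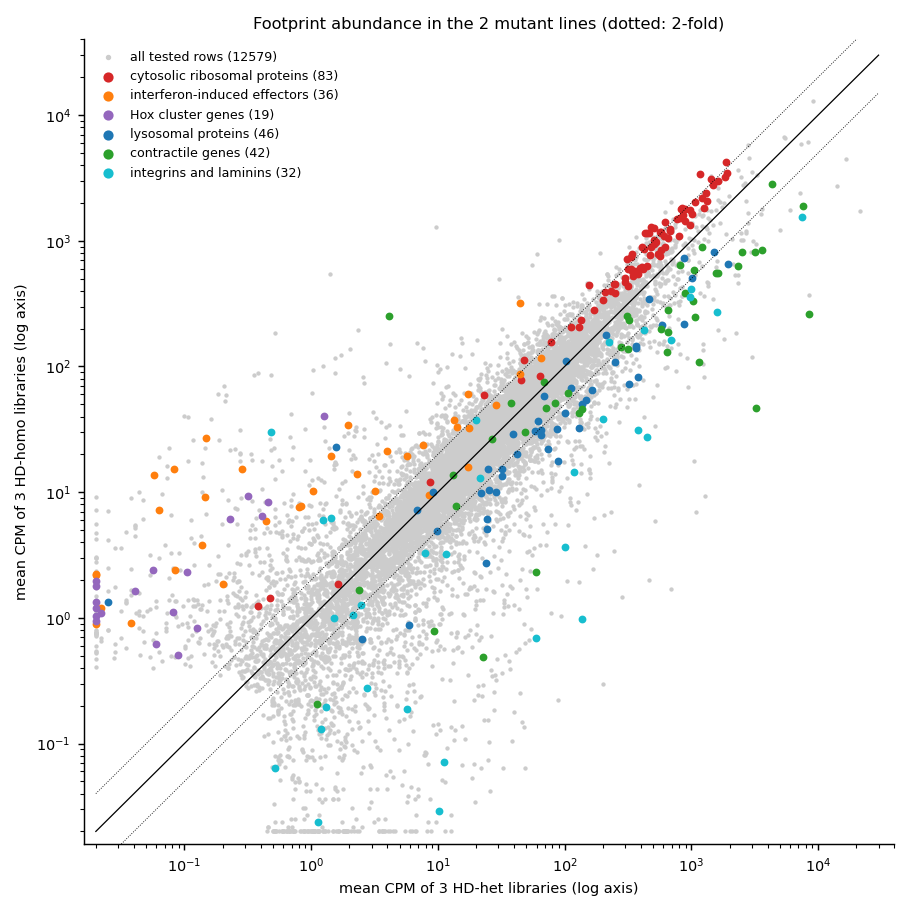
Mean CPM of the 3 HD-het libraries (horizontal, log axis) against the mean CPM of the 3 HD-homo libraries (vertical, log axis), with each tested row as a grey point, 6 gene lists in colour, the line of equal level solid and the 2-fold lines dotted. Means under 0.02 are drawn at 0.02. Most cytosolic ribosomal proteins and interferon-induced effectors lie above the solid line, whereas most lysosomal, contractile and integrin genes lie below it.

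The Huntingtin gene itself had fewer footprints in HD-homo. Htt read 19.6, 20.9 and 20.9 CPM in HD-het against 5.68, 7.64 and 6.30 in HD-homo, and control cells held 28.6 ± 1.24 CPM (mean ± SD, n = 3). The 2 mutant lines did not overlap, and the log2 value was -1.65 (SE 0.14, adjusted p = 4.29e-06).

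The genes with the most footprints, in CPM that are not corrected for length, were of different kinds in the 2 lines. In HD-het, 4 of the 5 top rows were matrix or contractile genes, namely Thbs1, Col1a1, Fn1 and Acta2, next to the elongation factor Eef1a1. In HD-homo the top rows were Eef1a1, the chaperone Hspa8 and the cytoskeletal genes Actb, Vim and Actg1. The 10 genes with the highest CPM took 10.9% of the scaled counts in HD-het and 6.10% in HD-homo.

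Some genes were close to absent in 1 of the lines. Scn3a, a sodium channel subunit of developing neurons, read 0.192, 0.0836 and 0.0472 CPM in HD-het against 31.04, 37.6 and 50.2 in HD-homo (log2 fold change 8.45, SE 0.33, adjusted p = 1.99e-08). Adm, which encodes the vasodilator peptide adrenomedullin, read 0, 0 and 0.189 CPM in HD-het against 15.4, 16.7 and 25.4 in HD-homo (log2 fold change 8.49, SE 0.52, adjusted p = 3.72e-07). Sim2, a bHLH-PAS transcription factor, lay at or under 3 counts in each HD-het library, and HD-homo exceeded it at least 198-fold with 22.002, 27.9 and 17.6 CPM. All 3 met the minimum of counts through HD-homo alone, so they had to differ between the lines. The control line lay near HD-het for each.

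In the other direction stood Lrp2, the large endocytic receptor megalin, a long-known marker of forebrain neuroepithelium. Its CPM were 648, 678 and 743 in HD-het and 1.01, 2.17 and 1.92 in HD-homo (log2 fold change -8.71, SE 0.24, adjusted p = 2.73e-09), with 212 ± 43.5 in control cells. Slc8a1, the sodium-calcium exchanger, read 21.5, 23.9 and 31.3 CPM in HD-het, while no HD-homo library passed 3 counts, a fall of at least 235-fold. Tenm3, a teneurin that guides neuronal wiring, fell from 77.7, 76.7 and 110.4 CPM to 0.0273, 0.418 and 0.219 CPM (log2 fold change -8.75, SE 0.37, adjusted p = 3.23e-08). The chemokine Cxcl14 read 17.3, 16.3 and 25.04 CPM in HD-het and fell at least 179-fold, although 11 of the 15 measured chemokines rose. Slc8a1 and Cxcl14 met the minimum of counts through HD-het alone, so they had to differ between the lines.

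Neural progenitor and patterning genes separated the lines sharply. Of 11 listed progenitor markers 8 were measured, of which 6 fell and 2 rose. Of the 8, 2 met the minimum through HD-het alone, Pax6 among them. Nestin (Nes), the intermediate filament of neural stem cells, read 1039, 1190.2 and 1055 CPM in HD-het against 7.51, 6.92 and 6.34 in HD-homo, which gave a log2 value of -7.30 (SE 0.14, adjusted p = 2.96e-10). The groups lay far apart, and control cells held 398 ± 83.6 CPM. Pax6, a master regulator of forebrain and eye patterning, read 26.6, 23.7 and 24.7 CPM in HD-het against 0.136, 0 and 0.0875 in HD-homo (log2 fold change -8.19, SE 0.31, adjusted p = 1.85e-08). Sox2, which maintains neural stem cells, read 38.97, 29.9 and 33.7 CPM against 2.70, 2.20 and 1.79 CPM (log2 fold change -3.91, SE 0.18, adjusted p = 5.26e-08). Beyond this list, the LIM homeobox genes Lhx1 and Lhx2 fell, with log2 fold changes of -8.44 and -5.04. On the log2(CPM + 0.1) scale, on which nearness of the control mean is given throughout, control cells lay nearer HD-het for all 5 of these genes, although in CPM those of Nes and Lhx2 lay nearer HD-homo.

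Among the genes that ran the other way were Slc1a3 and Dlx2. Slc1a3, the glial glutamate transporter GLAST, rose from 0.690, 0.752 and 1.46 CPM to 10.3, 12.8 and 11.5 CPM (log2 fold change 3.62, SE 0.25, adjusted p = 9.75e-07). Dlx2, a homeobox factor of the ventral forebrain from which striatal neurons arise, rose from 2.07, 1.37 and 2.93 CPM to 11.2, 25.01 and 22.9 CPM (log2 fold change 3.25, SE 0.34, adjusted p = 1.84e-05). Among 41 measured homeobox factors outside the Hox clusters, 11 rose and 21 fell, where 5 met the minimum through HD-het alone and 2 through HD-homo alone.

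The striatal label was checked against its markers. Of 15 markers of striatal projection neurons 4 were measured, and the dopamine receptor genes Drd1 and Drd2 had 0 counts in all 6 libraries. Foxp1, a forkhead factor of the striatum, read 43.5, 43.1 and 43.7 CPM in HD-het against 60.8, 49.6 and 58.1 in HD-homo (log2 fold change 0.37, SE 0.11, adjusted p = 0.011). Of the other measured markers the enkephalin gene Penk rose by 1.78, Pde10a fell by 1.85, and Ppp1r1b had a log2 fold change of 1.00 that did not pass (adjusted p = 0.059). Of 5 measured pan-neuronal markers 1 rose and 3 fell, with a median of -0.35. The tubulin Tubb3 was the higher one, with 87.0, 84.2 and 83.2 CPM in HD-het against 104, 98.7 and 98.7 in HD-homo. The adjusted p of Tubb3 was 0.034, and it no longer passed under 10 of the alternative settings. Map2, Stmn2 and Syn1 fell, with log2 fold changes of -0.35, -0.52 and -2.09.

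Markers of microglia and endothelium were mostly missing. Among 11 microglial markers 3 passed the minimum, and Cx3cr1, C1qa, C1qb and Tyrobp had 0 counts throughout, although Tmem119 read 19.8, 18.3 and 25.9 CPM in HD-het against 4.45, 3.88 and 4.68 in HD-homo. Cd68 fell as well, by 1.07, and Csf1r rose by 1.42. Of 10 endothelial markers 2 were measured, with Cldn5 and Emcn at 0, and summed levels of 1.69 to 2.23 CPM for HD-het against 0.491 to 1.05 for HD-homo. All 7 measured of 10 mural cell markers fell, from summed levels of 11321 to 13413 CPM in HD-het to 393 to 645 CPM in HD-homo, while the pericyte genes Rgs5 and Kcnj8 held at most 2 counts in any library. Fibroblast markers went both ways, with 8 of 12 higher and 3 lower. Their summed levels were 16183 to 20292.5 CPM in HD-het against 5672 to 6973 CPM in HD-homo. Their part in the results below was not tested, and in such bulk samples fewer cells of a type and less RNA per cell cannot be told apart. Y-linked genes were read in both lines, for example Ddx3y at 82.2, 89.5 and 80.3 CPM in HD-het against 77.6, 75.3 and 69.4 in HD-homo, and Xist had 0 counts.

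Hox genes, which set position along the body axis and are normally silent in forebrain, were read in HD-homo and hardly in HD-het. Of 39 listed, 19 met the minimum, and 16 of these did so through HD-homo alone, so that their common direction carries no weight. Hoxb9 read 1.42, 0.892 and 1.46 CPM in HD-het against 29.8, 54.01 and 36.7 in HD-homo (log2 fold change 5.03, SE 0.28, adjusted p = 1.86e-07). Summed over the 7 measured Hoxb genes the mean level was 2.81 CPM in HD-het, 74.02 CPM in HD-homo and 52.4 CPM in control cells. The Hoxa genes differed in another way, as their sum of 7.73 CPM in HD-homo stood against 0.192 CPM in HD-het and 2.52 CPM in control cells. Hoxa3, at 0 in HD-het, was at least 9.16-fold higher in HD-homo, and Hoxc9 at least 17.2-fold. Hoxa3 overlaps other Hoxa genes in the annotation.

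SOX and other developmental factors moved in both directions, with 19 of 41 higher and 13 lower. Of the 41, 3 met the minimum through HD-homo alone and 1 through HD-het alone. Sox6, a repressor in cartilage and cortical interneuron development, fell from 26.3, 23.3 and 18.4 CPM to 0.191, 0.380 and 0.306 CPM (log2 fold change -6.31, SE 0.25, adjusted p = 2.36e-08). Its close relative Sox5 did the reverse, with 0.537, 0.641 and 0.283 CPM in HD-het against 11.5, 14.3 and 22.3 in HD-homo (log2 fold change 4.96, SE 0.33, adjusted p = 7.32e-07). Foxf1, a factor of mesenchyme around the gut and lung, and Sox11, a factor of immature neurons, fell, with log2 fold changes of -4.48 and -4.36. Sox9, which promotes glial and cartilage fate, rose from 26.3, 20.3 and 17.8 CPM to 58.4, 87.2 and 57.6 CPM.

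**Figure D2:**
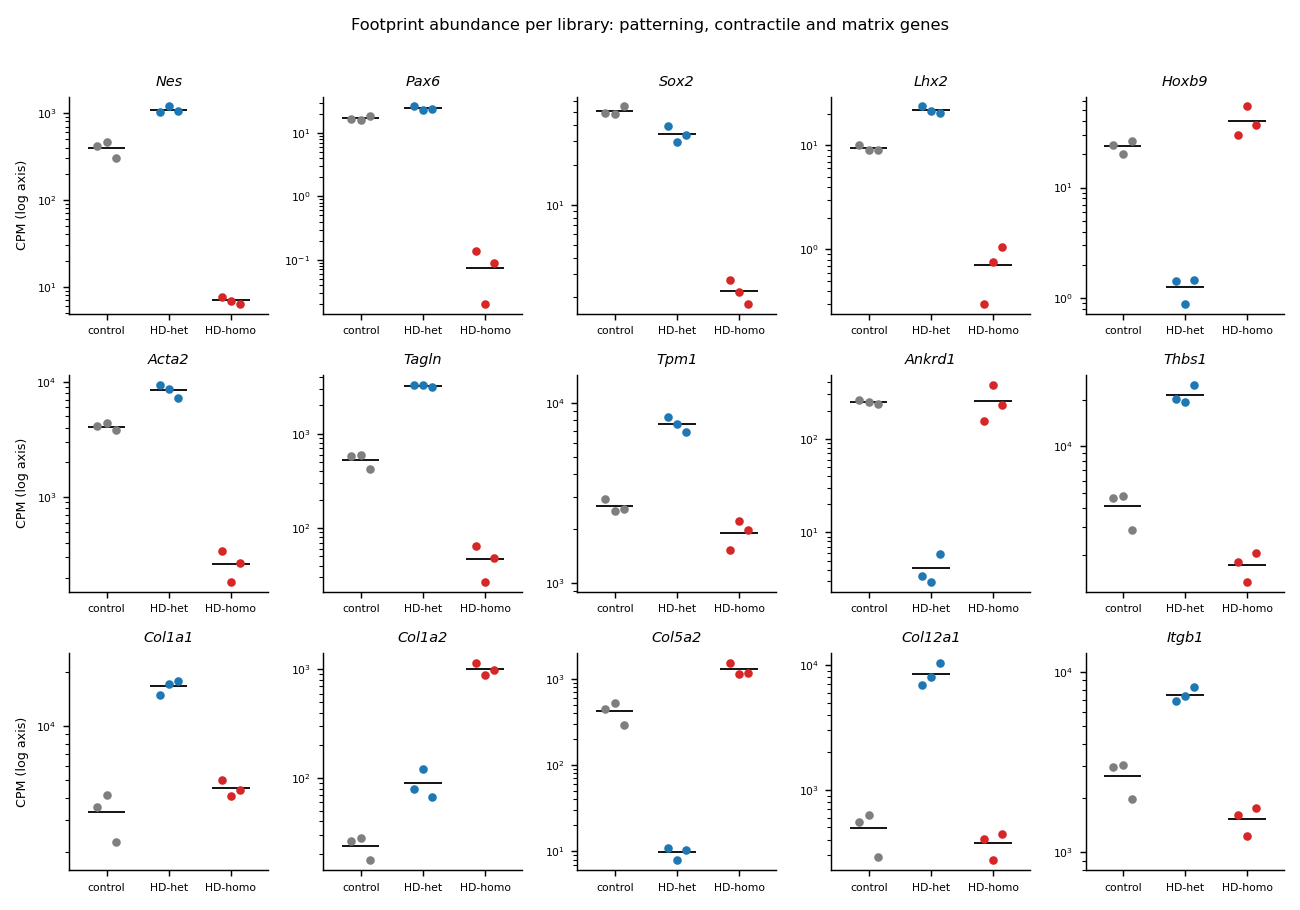
CPM (log axes that differ between panels) of 15 genes in the 3 libraries each of the control, HD-het and HD-homo lines, with points for libraries, bars for means, and values under 0.02 drawn at 0.02. Nes, Pax6, Sox2, Lhx2, Acta2, Tagln, Thbs1, Col12a1 and Itgb1 have their lowest mean in HD-homo. Hoxb9, Ankrd1 and Col5a2 have it in HD-het, and the mutant lines overlap in none of the panels.

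Contractile genes had fewer footprints in HD-homo. Of 42 measured smooth muscle genes and targets of serum response factor (SRF), 34 fell, 2 rose, and the median log2 fold change was -1.35 against -0.01 over all tested genes. Together they took 4.68% to 5.36% of the scaled counts of HD-het but 1.42% to 1.55% of those of HD-homo. Smooth muscle actin, Acta2, read 9410.0, 8713 and 7244 CPM in HD-het against 339.7, 183 and 268 in HD-homo, with 4079 ± 301 in control cells, which gave a log2 value of -5.00 (SE 0.23, adjusted p = 5.35e-08). Tagln, the actin-binding protein transgelin, read 3257, 3314 and 3141 CPM against 65.2, 26.8 and 48.6 CPM (log2 fold change -6.11, SE 0.30, adjusted p = 8.00e-08). It overlaps Pcsk7 in the annotation, and the use of strand in counting is not known. The list shares Acta2, Tagln, Myh11 and Des with the mural cell markers, and the part of such cells in its fall was not tested.

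Tropomyosin 1 (Tpm1), which lines actin filaments, read 8376, 7635 and 6847 CPM in HD-het against 1523, 2198 and 1975 in HD-homo (log2 fold change -2.005, SE 0.15, adjusted p = 1.29e-06). Filamin A (Flna), vinculin (Vcl) and the myosin light chain Myl9 fell, with log2 fold changes of -2.10, -1.87 and -3.42. SRF itself (Srf) had a log2 fold change of 0.06 (adjusted p = 0.72), its coactivator gene Mkl1 rose by 0.44, and the early-response targets Fos and Egr1 did not pass the test. Ankrd1, a stretch-induced nuclear cofactor, rose against the direction of most of the list, with 3.45, 2.95 and 5.95 CPM in HD-het against 155, 379 and 227 in HD-homo and 247 ± 13.4 in control cells (log2 fold change 5.98, SE 0.38, adjusted p = 4.92e-07).

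SRF is known to bind the CArG box, a short AT-rich element. The contractile list was chosen to hold SRF targets, so its share with a box does not bear on the change between the lines. In the 250 bases before the RefSeq start (build GRCm38.p6), a CArG box on either strand was found for 8 of the 35 measured contractile genes that had a window, 22.9%, against 1.62% of 27025 genes with a window and 1.53% of the 9719 tested genes with one. The windows of 3 of them that fell are given below 5′ to 3′, with the box in capitals, to show the element in genes that moved together. They lie at chr14:20929148-20929206 (+ strand) for Vcl, chr10:79988518-79988579 (+ strand) for Cnn2 and chr2:156775277-156775338 (+ strand) for Myl9.
Vcl: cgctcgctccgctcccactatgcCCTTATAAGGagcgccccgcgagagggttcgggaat
Cnn2: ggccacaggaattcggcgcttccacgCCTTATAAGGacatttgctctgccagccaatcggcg
Myl9: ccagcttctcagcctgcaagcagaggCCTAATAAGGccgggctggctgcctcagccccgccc
The median log2 fold change was -1.39 for the 8 genes with a box and -1.55 for those without, so within the list a match in this window did not go with a larger fall. Srf was among the 8 and did not fall.

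Collagen chains fell broadly but not uniformly. Of 33 measured chains, 25 fell, 6 rose, and the median log2 fold change was -1.88, or -1.53 over genes with 10 counts in every library. Through HD-het alone 4 of the 33 met the minimum, and through HD-homo alone 1. Col1a1, the main chain of fibrillar type I collagen, read 14864, 17191 and 17871 CPM in HD-het against 5010.5, 4103 and 4408 in HD-homo (log2 fold change -1.88, SE 0.12, adjusted p = 4.38e-07). Its partner chain Col1a2 ran the other way, from 80.2, 121 and 67.8 CPM to 1150.0, 898 and 992 CPM (log2 fold change 3.50, SE 0.21, adjusted p = 3.22e-07). The same split held for type V collagen, where Col5a1 fell by 3.61 on the log2 scale and Col5a2 rose from 11.1, 7.91 and 10.3 CPM to 1529, 1139.9 and 1178 CPM (log2 fold change 7.05, SE 0.19, adjusted p = 2.73e-09). For type VI collagen, Col6a1 and Col6a2 rose by 1.55 and 1.47 while Col6a3 fell by 1.24. Chains that normally assemble into 1 trimer were thus unequal between the lines.

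All 6 type IV chains, the network of basement membranes, fell. Col4a4, at or under 3 counts in each HD-homo library, was at least 41.8-fold lower, and the other 5 had log2 fold changes from -4.49 for Col4a6 to -2.35 for Col4a5. Col12a1, which decorates collagen fibrils, fell from 6862, 8005 and 10403 CPM to 405, 273 and 439.9 CPM (log2 fold change -4.50, SE 0.22, adjusted p = 8.05e-08). Col11a1 of cartilage-type fibrils fell from 458, 495 and 609 CPM to 6.42, 4.75 and 6.38 CPM. Enzymes that modify collagen fell for 19 of 27 measured and rose for 4. Plod2, a lysyl hydroxylase for cross-links, fell by 3.12 (SE 0.11, adjusted p = 9.04e-09), and of the lysyl oxidases Loxl2 fell by 2.99 while Loxl4 rose by 2.99.

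Other matrix genes included some with the most footprints in HD-het. Thrombospondin 1 (Thbs1), an adhesive glycoprotein that activates TGF-beta, read 20206, 19185 and 24920.0 CPM in HD-het against 1806, 1332 and 2034 in HD-homo (log2 fold change -3.64, SE 0.18, adjusted p = 7.84e-08), with 4109 ± 1065 in control cells. Fibronectin (Fn1) read 11759, 11723 and 19007 CPM against 3534, 2109 and 2508 CPM (log2 fold change -2.38, SE 0.23, adjusted p = 1.03e-05). HD-het replicate 3 stood above the others for Fn1, as it did for the list of 54 other matrix genes, which took 5.99%, 5.91% and 8.32% of the scaled counts of HD-het but 1.77%, 1.21% and 1.65% of those of HD-homo. Over this list 29 fell, 18 rose, and the median was -0.77, or -1.24 without the genes of chromosomes 15 and 18.

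Osteopontin (Spp1), a secreted phosphoprotein, fell from 2263, 2682 and 4062 CPM to 137, 76.7 and 144 CPM (log2 fold change -4.66, SE 0.29, adjusted p = 4.53e-07). Among small leucine-rich proteoglycans Prelp and Fmod fell, with log2 fold changes of -6.14 and -5.23. Asporin (Aspn), another of that family, rose from 2.38, 2.37 and 1.37 CPM to 115, 167 and 128 CPM (log2 fold change 6.03, SE 0.22, adjusted p = 1.53e-08). Matrix proteases and their inhibitors fell for 31 of 36 measured, of which 5 met the minimum through HD-het alone. Timp1, an inhibitor of matrix metalloproteases, fell by 1.20. Outside that list, the protease nexin Serpine2 fell from 147, 169.7 and 195 CPM to 4.83, 4.90 and 8.79 CPM. Adam8, a sheddase of leukocytes, opposed them with a rise of 4.83.

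Cells attach to such matrix through integrins, and these fell with it. Of 32 integrin and laminin genes, 26 fell, 3 rose, and the median log2 fold change was -2.34. Itgb1, the common beta chain of most matrix integrins, read 6873, 7327 and 8283 CPM in HD-het against 1604, 1229 and 1769 in HD-homo (log2 fold change -2.29, SE 0.15, adjusted p = 5.05e-07). Itga7, a laminin receptor, read 122, 126 and 164 CPM against 1.12, 1.03 and 0.787 CPM (log2 fold change -7.10, SE 0.19, adjusted p = 2.73e-09). The alpha-4 gene Itga4 read 10.4, 10.9 and 9.31 CPM in HD-het and fell at least 93.5-fold, to 3 counts or fewer. The laminin chain Lama2 fell from 45.5, 54.9 and 79.2 CPM to 0.874, 0.646 and 0.569 CPM. Of these genes 6 met the minimum through HD-het alone, and with 10 counts required in every library the median was -1.37.

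Cell-cell adhesion followed the same direction for 42 of 56 measured genes, with 7 higher and a median of -1.99. Of these, 7 met the minimum through HD-het alone, and over genes with 10 counts in every library the median was -1.28. Cadm1, a synaptic and epithelial adhesion molecule, read 285, 277 and 295 CPM in HD-het against 1.53, 1.60 and 1.27 in HD-homo (log2 fold change -7.59, SE 0.14, adjusted p = 2.96e-10). Fat1, a giant protocadherin, fell from 1311, 1465 and 2124 CPM to 208, 140.3 and 242 CPM (log2 fold change -3.05, SE 0.23, adjusted p = 1.72e-06). Axon guidance genes fell for 41 of 55, 8 of which met the minimum through HD-het alone, and rose for 6, with a median of -1.58, or -1.19 over genes with 10 counts in every library. Among their receptors Unc5b, Plxnd1 and Epha4 fell, with log2 fold changes of -3.99, -3.93 and -3.90. The ligand Sema3c rose from 232, 240.4 and 192 CPM to 495, 336 and 642 CPM (log2 fold change 1.15, SE 0.20, adjusted p = 5.64e-04).

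**Figure D3:**
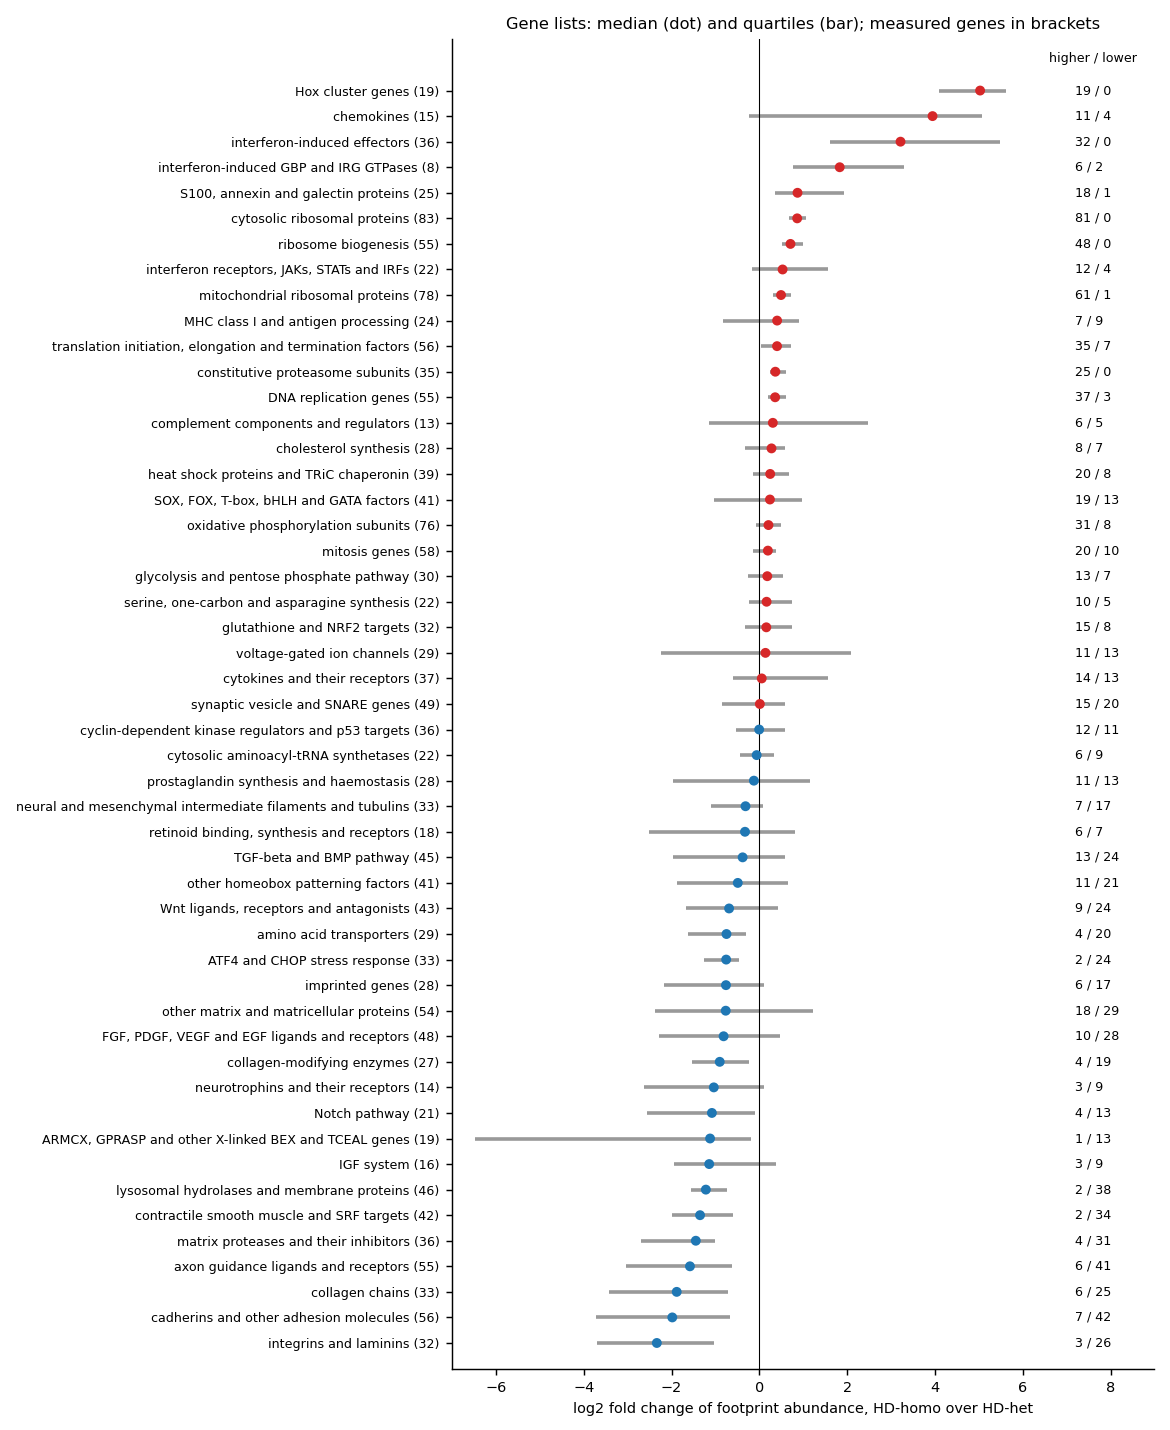
Median log2 fold change of footprint abundance, HD-homo over HD-het (dot, red above 0 and blue below), with the quartiles over the measured genes (grey bar), for each list of 8 or more measured genes outside the cell type markers. Numbers in brackets are measured genes, and the right column counts genes higher and lower at adjusted p under 0.05, from 19 and 0 for Hox genes to 3 and 26 for integrins and laminins.

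Genes of ribosomal proteins moved the opposite way, by smaller steps. Of 83 measured cytosolic ribosomal protein genes 81 rose and none fell, and their share of scaled counts ran from 4.57% to 4.97% for HD-het, from 8.54% to 9.33% for HD-homo and from 7.85% to 8.27% for control cells. The median rise was 0.86, and the control mean lay nearer HD-homo for 25 of the 26 that changed at least 2-fold. Rps3a1 read 1905, 1861 and 1837 CPM in HD-het against 4036, 4184 and 4575 in HD-homo (log2 fold change 1.19, SE 0.09, adjusted p = 2.40e-06). Rpl8 read 1216, 1108 and 1183 CPM against 4080.4, 2874 and 3218 CPM (log2 fold change 1.54, SE 0.13, adjusted p = 4.47e-06). It lies on chromosome 15, where the 4 measured genes of the list had a median of 1.43, against 0.86 for the other 79. Ribosomal protein genes have many processed copies in the genome, so reads may be split between rows. After correction of each library for GC content and length by offsets, the median was 0.40.

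Factors that build ribosomes rose for 48 of 55 measured, with none lower and a median of 0.71. Nop16, a nucleolar protein needed for the large subunit, read 41.5, 37.3 and 48.0 CPM in HD-het against 153, 117 and 151 in HD-homo (log2 fold change 1.73, SE 0.14, adjusted p = 2.52e-06). Nucleolin (Ncl), a main protein of the nucleolus, rose from 2244, 2205 and 2528 CPM to 3268, 3830.1 and 3926 CPM (log2 fold change 0.66, SE 0.11, adjusted p = 3.72e-04). The control mean lay nearer HD-homo for all 13 of these genes that changed at least 2-fold. Mitochondrial ribosomal proteins rose for 61 of 78 and fell for 1, with a median of 0.49, or 0.26 with the GC and length offsets. Mrpl13, also on chromosome 15, rose from 63.4, 71.7 and 69.4 CPM to 155, 138 and 162 CPM. Mrpl17 had a log2 fold change of -0.08 (adjusted p = 0.54).

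Most translation factors rose. Of 56 measured 35 rose, 7 fell, and the median was 0.40. Eef1a1, the elongation factor that delivers aminoacyl-tRNA, read 8936, 9513 and 8728 CPM in HD-het against 12415, 12433 and 13667 in HD-homo (log2 fold change 0.50, SE 0.10, adjusted p = 9.47e-04). In the initiation complex eIF3, Eif3e, Eif3l, Eif3h and Eif3d rose by 1.26, 1.19, 1.11 and 1.07, while Eif3c fell by 0.29 and Eif3a had a log2 fold change of -0.11 that did not pass. The 7 factors encoded on chromosome 15, among them Eif3e, Eif3l, Eif3h and Eif3d, had a median of 1.11, against 0.36 for the other 49. The scaffold eIF4GII gene Eif4g3 fell from 97.1, 103 and 106 CPM to 38.3, 43.2 and 34.5 CPM (log2 fold change -1.40, SE 0.11, adjusted p = 2.45e-06). Aminoacyl-tRNA synthetases had no common direction, with 6 of 22 higher, among them Farsa by 1.26, and 9 lower, among them Eprs at -0.97.

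Proteasome subunits rose for 25 of 35, none fell, and the median was 0.36, or 0.09 with the GC and length offsets. Psmb3 rose from 271, 285 and 256 CPM to 627, 500.0 and 549 CPM (log2 fold change 1.04, SE 0.11, adjusted p = 1.58e-05). Oxidative phosphorylation subunits rose for 31 of 76 and fell for 8, with a median of 0.21 that turned to -0.21 with those offsets. Chaperones went both ways. Of the heat shock and TRiC list 20 of 39 rose, such as Hspa8 by 0.31, which with those offsets was 0.18 (adjusted p = 0.095), and 8 fell, among them the small heat shock genes Hspb1 and Hspb6, with log2 fold changes of -2.20 and -2.35.

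**Figure D4:**
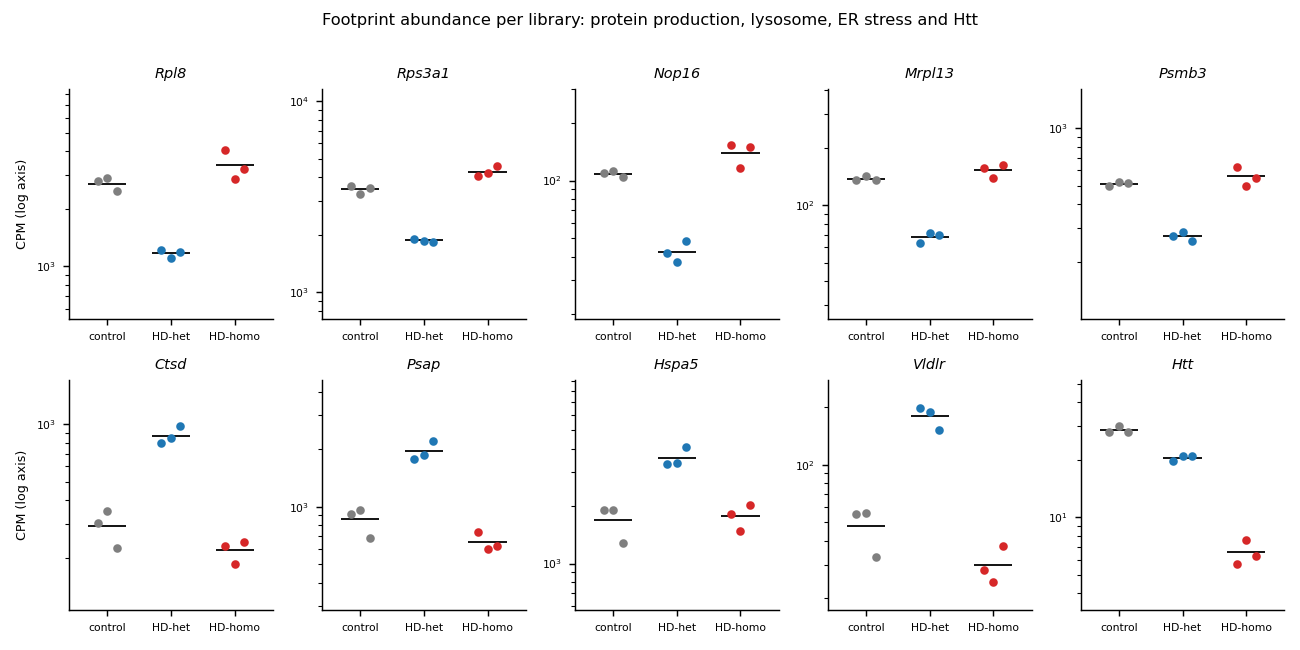
CPM (log axes that differ between panels) of 10 genes in the 3 libraries each of the control, HD-het and HD-homo lines, with points for libraries and bars for means. Rpl8, Rps3a1, Nop16, Mrpl13 and Psmb3 are lowest in HD-het, Ctsd, Psap, Hspa5 and Vldlr are highest in HD-het, and Htt is lowest in HD-homo.

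Lysosomal genes ran against the ribosomal genes. Of 46 measured hydrolases and membrane proteins 38 fell, 2 rose, and the median log2 fold change was -1.22. Prosaposin (Psap), the precursor of sphingolipid activators, read 1780.3, 1859 and 2213 CPM in HD-het against 733, 597 and 621 in HD-homo (log2 fold change -1.58, SE 0.12, adjusted p = 2.00e-06). Cathepsin D (Ctsd), the main aspartic protease, read 793, 845 and 972 CPM against 230.2, 186 and 240.2 CPM (log2 fold change -1.99, SE 0.13, adjusted p = 5.39e-07). Progranulin (Grn), the cholesterol exporter Npc1 and the sialidase Neu1 fell, with log2 fold changes of -2.18, -2.32 and -2.26. For 31 of the 32 members that changed at least 2-fold the control mean lay nearer HD-homo.

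The exceptions were the cysteine cathepsins Ctsh and Ctsc. Ctsh rose by 3.87 (SE 0.22, adjusted p = 2.60e-07), and Ctsc was at least 11.8-fold higher in HD-homo. Ctsc met the minimum through HD-homo alone. Tfeb, the transcription factor of lysosome biogenesis, had a log2 fold change of 0.11 (adjusted p = 0.56). TFEB is known to bind an extended E-box. The letters GTCACGTG, on either strand, occurred in the 250 bases before the start of 10 of the 37 measured lysosomal genes with a window, 27.03%, against 2.11% of all 27025 genes and 3.93% of the 9719 tested genes. As the list was chosen to hold lysosomal genes, the kind TFEB acts on, this share does not bear on the change between the lines. The windows of 3 of the 10 are shown with the match in capitals. They lie at chr8:13159107-13159160 (+ strand) for Lamp1, chr8:3500420-3500479 (+ strand) for Mcoln1 and chr2:164833733-164833772 (+ strand) for Ctsa.
Lamp1: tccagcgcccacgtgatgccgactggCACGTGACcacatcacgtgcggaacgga
Mcoln1: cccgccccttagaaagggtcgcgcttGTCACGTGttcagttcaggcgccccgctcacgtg
Ctsa: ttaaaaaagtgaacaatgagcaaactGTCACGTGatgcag
Of the 10 genes with a match 9 fell, with a median of -1.10 over the 10, and those without had a median of -1.26. Lamp1, a main glycoprotein of the lysosome membrane, read 942, 967 and 1153 CPM in HD-het against 534, 404 and 568 in HD-homo.

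Stress-response and amino acid genes were also lower in HD-homo. Of 33 measured genes of the integrated stress and unfolded protein responses, a list that holds the factors ATF4 and CHOP, their targets, the kinases and sensors upstream and chaperones, 24 fell, 2 rose, and the median was -0.76. Hspa5 (BiP), the chaperone of the endoplasmic reticulum, read 3336, 3346 and 4062 CPM in HD-het against 1821, 1488 and 2020.3 in HD-homo (log2 fold change -1.01, SE 0.13, adjusted p = 8.38e-05). Vldlr, a lipoprotein and reelin receptor, fell from 199, 189 and 151 CPM to 28.3, 24.2 and 37.3 CPM (log2 fold change -2.59, SE 0.17, adjusted p = 6.48e-07). The control mean lay nearer HD-homo for 11 of the 13 that changed at least 2-fold. The letters TGATGNAA on either strand, a core of the element that ATF4 is known to bind, occurred in the 250 bases before the start of 7 of 29 measured genes with a window, 24.1%, against 3.91% of all 27025 genes and 2.35% of the 9719 tested, and 5 of these 7 fell. As the list was chosen to hold ATF4 targets, this share does not bear on the change between the lines. The median log2 fold change was -1.31 for the 7 with a match and -0.72 for those without. The cause of this difference was not tested.

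Amino acid transporters fell for 20 of 29 and rose for 4. Slc38a1, a glutamine carrier, fell from 110.2, 114 and 143 CPM to 8.16, 8.86 and 4.64 CPM (log2 fold change -4.07, SE 0.22, adjusted p = 1.67e-07). The taurine carrier Slc6a6, the cystine exchanger Slc7a11 and its heavy chain Slc3a2 fell, with log2 fold changes of -2.14, -1.65 and -0.81. By contrast, enzymes of serine, one-carbon and asparagine synthesis rose for 10 of 22 and fell for 5.

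DNA replication genes rose for 37 of 55 and fell for 3, with a median of 0.36. Prim1, the primase subunit, rose from 63.9, 71.3 and 77.4 CPM to 174, 145 and 193 CPM (log2 fold change 1.27, SE 0.13, adjusted p = 1.24e-05). Mitosis genes were mixed, with 20 of 58 higher and 10 lower. Cdk1, the mitotic kinase, rose from 465, 461 and 455 CPM to 886, 951 and 869.7 CPM, while the proliferation antigen Mki67 fell from 325, 349 and 368 CPM to 100.02, 131 and 88.1 CPM (log2 fold change -1.70, SE 0.14, adjusted p = 3.90e-06). In glucose metabolism, 2 phosphofructokinase genes moved in opposite directions, with log2 fold changes of 1.90 for Pfkl and -1.30 for Pfkp. Pdk1, the kinase that shuts pyruvate out of mitochondria, rose from 2.61, 3.01 and 3.45 CPM to 20.6, 20.6 and 18.4 CPM (log2 fold change 2.72, SE 0.15, adjusted p = 1.83e-07). Nqo1, a quinone reductase under NRF2, rose from 65.2, 61.7 and 62.2 CPM to 268, 277 and 398 CPM (log2 fold change 2.32, SE 0.15, adjusted p = 6.60e-07).

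Interferon-induced effectors were higher in HD-homo for 32 of 36 measured, with none lower and a median of 3.22, or 1.66 over the genes with 10 counts in every library. Of the 36, 13 met the minimum through HD-homo alone. Ifitm3, a membrane restriction factor, read 46.2, 39.95 and 47.95 CPM in HD-het against 330.2, 225 and 408 in HD-homo (log2 fold change 2.85, SE 0.20, adjusted p = 9.63e-07). Oas1a, which senses double-stranded RNA, was at least 135-fold higher in HD-homo. It is close in sequence to Oas1g, so their reads may be shared. For 28 of the 29 that changed at least 2-fold the control mean lay nearer HD-het, the reverse of the ribosomal genes.

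GAAA followed after any 2 bases by GAAA, on either strand, the core of the interferon-stimulated response element, was found in the 250 bases before the start of 11 of 28 measured effectors with a window, 39.3%, against 3.46% of all 27025 genes and 3.09% of the 9719 tested genes. As the list was chosen to hold genes that interferon induces, this share does not bear on the change between the lines. The windows of 3 are shown with the matches in capitals. They lie at chr19:34640759-34640820 (+ strand) for Ifit1, chr12:26456537-26456598 (- strand) for Rsad2 and chr4:156200861-156200922 (- strand) for Isg15.
Ifit1: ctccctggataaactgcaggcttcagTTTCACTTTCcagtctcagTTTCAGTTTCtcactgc
Rsad2: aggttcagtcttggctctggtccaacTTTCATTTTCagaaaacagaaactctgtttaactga
Isg15: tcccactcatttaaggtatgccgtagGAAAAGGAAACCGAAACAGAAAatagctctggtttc
Ifit1, an RNA-binding antiviral protein, read 0.153, 0.195 and 0.0945 CPM in HD-het against 19.8, 29.8 and 31.2 in HD-homo (log2 fold change 7.39, SE 0.30, adjusted p = 2.46e-08). Of the 11 effectors with a match 10 rose and Bst2 did not pass the test, but Ifit1, Rsad2, Oas1a, Oas1g, Oas3 and Trim30a among them met the minimum through HD-homo alone. The median log2 fold change was 5.38 for the 11 and 1.78 for those without a match. The part of the count minimum in this difference was not tested.

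Chemokines rose for 11 of 15 measured and fell for 4, with a median of 3.94, and 4 of them met the minimum through HD-homo alone. Cxcl10, which interferon induces, read 1.53, 1.81 and 1.28 CPM in HD-het against 77.9, 166 and 104 in HD-homo (log2 fold change 6.20, SE 0.31, adjusted p = 8.99e-08). It overlaps Art3 in the annotation. The membrane-bound chemokine Cx3cl1 fell from 421, 491 and 347 CPM to 55.9, 26.9 and 35.8 CPM (log2 fold change -3.41, SE 0.25, adjusted p = 1.38e-06). Of 8 interferon-induced GTPases of the GBP and IRG families 6 rose and 2 fell, with a median of 1.83. Their summed levels overlapped, at 31.2 to 40.9 CPM in HD-het against 35.8 to 46.1 CPM in HD-homo. Of 22 interferon receptors, JAKs, STATs, IRFs and their inhibitors 12 rose and 4 fell, with a median of 0.53.

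Other immune genes went both ways. Among the STATs, Stat6, the transcription factor of interleukin-4 signalling, read 0.153, 0.195 and 0.142 CPM in HD-het against 41.5, 37.9 and 35.6 in HD-homo (log2 fold change 7.80, SE 0.19, adjusted p = 1.89e-09), with control cells at 0.160 ± 0.0940 CPM. Stat6 met the minimum through HD-homo alone and overlaps Nab2 in the annotation. Jak1, the shared kinase, had a log2 fold change of 0.13 (adjusted p = 0.32). Of 24 genes of MHC class I and antigen processing 7 rose, such as the immunoproteasome gene Psmb10 by 1.85, and 9 fell. H2-T23, a non-classical class I gene, fell from 31.9, 30.7 and 37.7 CPM to 1.67, 0.950 and 1.31 CPM (log2 fold change -4.64, SE 0.20, adjusted p = 3.10e-08). In the complement list C3, the central component, rose from 0.269, 0.0557 and 0.0945 CPM to 14.4, 11.2 and 13.9 CPM (log2 fold change 6.58, SE 0.33, adjusted p = 8.63e-08), and clusterin (Clu), an inhibitor and chaperone, fell from 32.4, 31.6 and 31.8 CPM to 2.02, 1.48 and 2.01 CPM (log2 fold change -4.11, SE 0.15, adjusted p = 1.51e-08). C3 met the minimum through HD-homo alone.

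Galectins, S100 proteins and annexins rose for 18 of 25, with 1 lower and a median of 0.87, or 0.34 with the GC and length offsets. Lgals3, the galectin of activated macrophages and fibroblasts, read 58.2, 58.3 and 64.2 CPM in HD-het against 751, 801 and 822 in HD-homo (log2 fold change 3.72, SE 0.10, adjusted p = 2.78e-09). Lgals9 and S100a16 rose by 5.86 and 4.98. Control levels of these 3 genes lay near HD-het. Over the list this held for 11 of the 25, and the summed level of control cells was nearer HD-homo. It was 24833 CPM in control cells, 22267 CPM in HD-homo and 13818 CPM in HD-het.

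Growth factor systems showed exchanges of ligands and receptors. In the PDGF system the receptor Pdgfra rose from 5.91, 5.38 and 9.40 CPM to 178, 113 and 168 CPM (log2 fold change 4.49, SE 0.25, adjusted p = 1.77e-07), whereas the receptor Pdgfrb and the ligand Pdgfb fell, with log2 fold changes of -2.68 and -4.99. The VEGF receptor Flt1 fell from 188, 177 and 251 CPM to 9.45, 5.24 and 5.16 CPM, and the ligand gene Vegfd rose by 3.90. Over 48 measured ligands and receptors of these families 28 fell and 10 rose. Of the 48, 3 met the minimum through HD-het alone and 2 through HD-homo alone.

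Insulin-like growth factor genes fell for 9 of 16 measured and rose for 3. Igf1, the ligand, read 20.9, 19.7 and 19.7 CPM in HD-het against 0.737, 0.646 and 0.831 in HD-homo (log2 fold change -4.77, SE 0.16, adjusted p = 9.04e-09). Igfbp2, a carrier protein, read 1088, 959 and 1074 CPM against 17.3, 14.6 and 21.7 CPM (log2 fold change -5.87, SE 0.17, adjusted p = 3.00e-09), with 7.57 ± 1.49 in control cells, so it was high in HD-het alone. Igfbp6, which prefers IGF2, rose by 3.88. For Igfbp5, HD-het replicate 3 at 48.3 CPM stood well above its other replicates, and HD-homo stayed at or under 0.175 CPM. Igfbp5 met the minimum through HD-het alone.

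In the Notch pathway 13 of 21 genes fell and 4 rose, and 3 of them met the minimum through HD-het alone. The ligand Jag1 read 342, 345 and 461 CPM in HD-het against 10.8, 7.71 and 15.7 in HD-homo (log2 fold change -5.07, SE 0.25, adjusted p = 8.39e-08). The receptors Notch1 and Notch2 fell, with log2 fold changes of -2.56 and -1.44, the nuclear partner Rbpj rose by 0.62, and the target Hes1 had a log2 fold change of -0.17 that did not pass. Among 43 Wnt genes 24 fell and 9 rose, where 5 met the minimum through HD-het alone and 4, with Wnt10a among them, through HD-homo alone. The ligand Wnt10a read 0.0767, 0.167 and 0.189 CPM in HD-het against 30.6, 17.3 and 19.1 in HD-homo (log2 fold change 7.24, SE 0.36, adjusted p = 8.31e-08), the deacylase Notum, a Wnt inhibitor, rose by 3.66, and the receptor Fzd4 and the inhibitor Sfrp1 fell, with log2 fold changes of -3.54 and -3.29.

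For the TGF-beta and BMP pathway 24 of 45 fell and 13 rose, where 5 met the minimum through HD-het alone and 3 through HD-homo alone. Follistatin (Fst) and its relative Fstl3, which trap activin, rose by 2.58 and 5.74, while the activin subunit Inhbb fell by 4.37. Crabp1, which binds retinoic acid in the cytosol, had 94.1, 86.4 and 102 CPM in HD-het against 1.04, 0.950 and 1.14 in HD-homo and 494 ± 24.3 in control cells (log2 fold change -6.50, SE 0.15, adjusted p = 1.09e-09).

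Neuronal trafficking and signalling genes went both ways. Sort1, the sorting receptor sortilin that binds pro-neurotrophins, fell from 30.7, 30.4 and 38.03 CPM to 1.53, 1.14 and 0.962 CPM (log2 fold change -4.73, SE 0.19, adjusted p = 2.38e-08). Bdnf, the neurotrophin that the cortex supplies to the striatum, had a log2 fold change of 0.19 (adjusted p = 0.38). Of 29 voltage-gated channel genes 11 rose and 13 fell, where 7 met the minimum through HD-homo alone and 4 through HD-het alone, and the channel subunit gene Kcnab1 fell from 50.5, 48.1 and 45.2 CPM to 0.409, 0.836 and 1.44 CPM (log2 fold change -5.83, SE 0.29, adjusted p = 8.00e-08). Of 49 synaptic vesicle genes 15 rose and 20 fell, where 6 met the minimum through HD-homo alone and 2 through HD-het alone.

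Imprinted genes, read from only the maternal or the paternal copy, fell for 17 of 28 and rose for 6, and 5 of them met the minimum through HD-het alone. Ndn (necdin) fell from 76.4, 71.2 and 85.3 CPM to 6.58, 6.42 and 6.60 CPM (log2 fold change -3.57, SE 0.12, adjusted p = 6.98e-09), and Peg3, at or under 3 counts in each HD-homo library, was at least 13.6-fold lower. Grb10, an inhibitor of insulin receptor signalling, rose from 195, 208 and 165 CPM to 815, 829 and 763 CPM (log2 fold change 2.08, SE 0.11, adjusted p = 1.47e-07). In the X-linked ARMCX, BEX and TCEAL cluster 13 of 19 fell, 1 rose and 6 met the minimum through HD-het alone. Armcx3, a protein of the mitochondrial outer membrane, fell from 47.3, 48.95 and 44.3 CPM to 18.3, 23.2 and 17.9 CPM (log2 fold change -1.24, SE 0.13, adjusted p = 1.40e-05).

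The changes were not spread evenly over the genome. Chromosome 15 had the highest median log2 fold change, 0.64, with 320 of 505 genes higher and 68 lower. In 5 consecutive blocks of 101 genes along it the medians ran from 0.45 to 0.69, so the shift covered the whole chromosome. Against the control line the median of chromosome 15 was -0.48 for HD-het and 0.04 for HD-homo, both computed with the same control libraries. Chromosome 18 had the lowest median, -0.48, with 36 of 338 genes higher and 186 lower, and its 5 blocks of 67 or 68 genes ran from -0.80 to -0.27. The medians against the control line were 0.40 for HD-het and -0.03 for HD-homo. Without the genes of these 2 chromosomes 3542 genes rose and 3764 fell. Copy number of chromosomes was not measured here, and its part in these shifts was not tested.

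**Figure D5:**
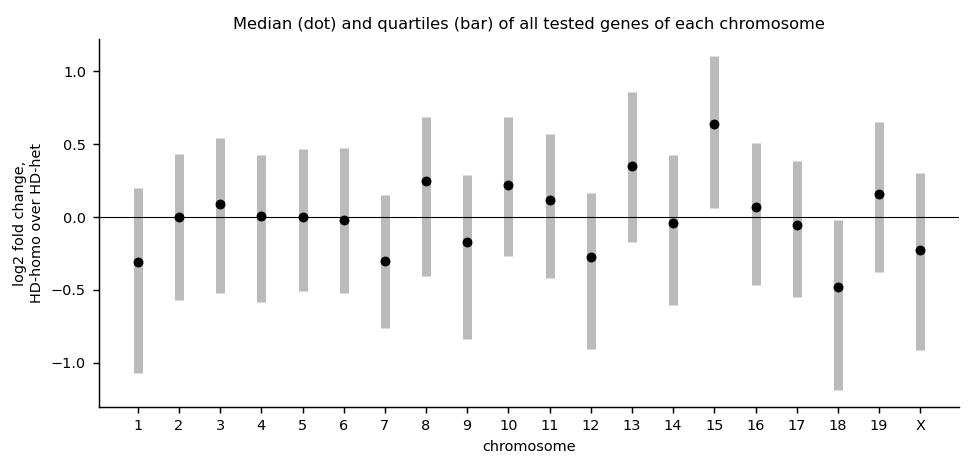
Median (dot) and quartiles (bar) of the log2 fold change of footprint abundance, HD-homo over HD-het, over the tested genes of each chromosome. The medians run from -0.48 for chromosome 18 to 0.64 for chromosome 15.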

How the data were processed

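The deposited table held raw counts of ribosome footprints per gene, which the authors had made before deposit, with 3 libraries per line. The submitters' processing notes name cutadapt, Bowtie 1.0.1 and mm10. How reads were assigned to genes (program, annotation, strand) is not given in the sources used here. Groups came from the sample titles. The 12579 rows with at least 10 counts in at least 3 of the 6 mutant libraries were fitted in edgeR 4.0.16 (R 4.3.3, limma 3.58.1) with TMM scaling and the quasi-likelihood test, with Benjamini-Hochberg adjustment over all of them (threshold 0.05). The procedure was tested on simulated data. Control libraries were not in this fit, and their CPM serve as levels.

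Alternatives were RLE, upper-quartile and total-count scaling, DESeq2 1.42.0, other count minimums, all 9 libraries, a replicate block, offsets that take out loess curves (span 0.5) of GC and of length (known for 98.1% of rows), a stricter threshold, rows without older symbols, and leaving out each library. Of all rows, 93.03% matched a RefSeq gene (GRCm38.p6). Older symbols of another row filled 283 rows with 0.223% of counts, and 26 rows carried dates in place of symbols, with 0.259%. Promoter windows came from the RefSeq table of the same build.

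The members and the gene lists were chosen with earlier results of these data known, and the lists were written from general knowledge. Lists are described by counts and medians without a test. Named genes were the largest changes with CPM of at least 10 in the higher line, overall and up to 4 per list, the member of each list and the 5 genes of each line with the highest CPM, and Htt, of which some are not reported here. Further genes were chosen after their values were seen, namely Hoxa3, Hoxc9, Flna, Vcl, Myl9, Srf, Mkl1, Fos, Egr1, Cnn2, Col5a1, Col6a1, Col6a2, Col6a3, Col4a4, Col4a5, Col4a6, Eif3h, Eif3d, Eif3c, Eif3a, Ctsd, Grn, Ctsc, Tfeb, Lamp1, Mcoln1, Ctsa, Slc7a11, Rsad2, Isg15, Bst2, Rbpj, Hes1, Bdnf, Peg3, Penk, Pde10a, Ppp1r1b, Stmn2, Syn1, Cd68, Csf1r, Oas3, Trim30a and Cx3cl1. A gene with at most 3 counts in every library of a line was given as a bound, with 3 counts per library as the floor, which covers counting error only.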

Additional observations from a re-analysis of the deposited data

How the results depend on the processing

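The counts of called genes kept within 1.5 times of 7916 under every alternative run, from 6360 at adjusted p under 0.01 to 8555 with all 9 libraries. Leaving out 1 library at a time gave 6948 to 7841 called genes, 3392 to 3877 of them higher and 3556 to 3964 lower. For changes of at least 2-fold the range was 3355 to 3481, with 1287 to 1415 higher and 2033 to 2136 lower. DESeq2 called 7839 genes. Total-count scaling moved the median of all genes from -0.01 to 0.10 and the share of calls that were higher from 49.2% to 56.3%. Replicate numbers did not pair the libraries, as deviations of same-numbered libraries correlated at -0.09, 0.09 and 0.18, and with a replicate block 7916 genes were called, 3863 higher and 4053 lower, with 3400 at 2-fold. Of 4418 values of 262 named genes, 4351 kept the call, 58 lost it, 7 gained it and 2 reversed. A change of sign counted as reversed only where the main or the alternative fit called the gene. Both reversals were of Mrpl17, from -0.08 to 0.34 with GC and length offsets and 0.34 with the replicate block added. These offsets also turned the median of oxidative phosphorylation subunits to -0.21 (-0.22 with the replicate block) and of glutathione and NRF2 targets from 0.16 to -0.0392 (-0.0386 with the replicate block). The median of aminoacyl-tRNA synthetases turned from -0.06 to 0.046 with total counts. That of oligodendrocyte markers turned from 0.37 to -0.54 with 10 counts in every library and to -0.53 without chromosomes 15 and 18, a setting chosen after seeing the data. That of endothelial markers turned from -0.98 to 0.55 with no filter. Smaller or more variable medians also changed sign. With 10 counts in every library those of complement genes went from 0.31 to -0.94, of cytokines from 0.05 to -0.24 and of voltage-gated channels from 0.14 to -0.68, and the last was -0.73 with no filter and -0.18 without HD-het replicate 1. MHC class I genes went from 0.40 to -0.12 without HD-homo replicate 3, synaptic vesicle genes from 0.01 to -0.31 with no filter, astrocyte markers from -0.07 to 0.25 with all 9 libraries, prostaglandin and haemostasis genes from -0.13 to 0.04 without chromosomes 15 and 18, and cyclin-dependent kinase regulators from -0.01 to 0.12 with GC and length offsets. Total counts turned the medians of chromosomes 2, 6, 14 and 17, which lay from -0.0539 to -0.0028, above 0. The cause was not tested. Depth limits the 138 genes at or under 3 counts in every HD-het library and the 194 in HD-homo, for which only bounds can be given.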
